A study of Rattus norvegicus with 10 samples.

Results

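Il10 and 9 further genes of the interleukin-10 axis and of alternative (M2) macrophage polarization were examined in splenic rat macrophages. The 10 genes (Il10, Il10ra, Il10rb, Mrc1, Arg1, Il4r, Stat6, Irf4, Klf4 and Tgfb1) were chosen by name, and all 10 were among the 9003 genes of the expression table. The RNA-seq libraries came from female WKY /Ncrj rats of 7 to 12 weeks of age. Control rats were healthy (2 libraries), and GN rats had anti-glomerular basement membrane nephritis raised with the monoclonal antibody TF78, with no cells given (2 libraries). EV+ and EV- cells (3 libraries each) came from nephritic rats that had received human adipose-derived stromal cells (ASCs) stained with the membrane dye DiD. EV+ macrophages carried the dye, taken as a sign that ASC-derived extracellular vesicles had been transferred to them, and EV- macrophages did not. Cells were separated with anti-CD11b/c and then sorted, so each library holds RNA of a sorted population. In such bulk libraries fewer cells of a type and less RNA per cell cannot be told apart.

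Interleukin-10 is an anti-inflammatory cytokine that macrophages make and respond to. It binds a receptor of 2 chains, encoded by Il10ra and Il10rb, and signals through the kinases Jak1 and Tyk2 to the transcription factor Stat3. The alternative programme is classically started by interleukin-4 or interleukin-13, which act through Il4r on Stat6. Irf4 and Klf4 are transcription factors that work with Stat6, Arg1 (arginase 1) and Mrc1 (the mannose receptor CD206) are its customary read-outs, and Tgfb1 encodes a cytokine secreted by such macrophages.

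Il10 was the only member that passed the threshold given below in the limma fit of the 4 groups. With 2 or 3 libraries per group, a member that did not pass may still differ. Its level, as normalised read counts scaled to library size by TMM (CPM), was highest in control macrophages and lowest in EV- macrophages. Relative to control it was lower in both EV+ and EV- cells, and relative to GN it was lower in EV- cells. The genes for both receptor chains, for Il4r, Stat6 and Klf4, and for Tgfb1 were steadily expressed, and Mrc1, Arg1 and Irf4 were low, under 5 CPM in every library. Differences are given on the log2(CPM + 1) scale from limma, and a gene was called at a Benjamini-Hochberg adjusted p (FDR) under 0.1 over all 9003 genes.

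The 2 control libraries had Il10 levels of 25.2 and 17.0 CPM (654 and 412 reads). The GN libraries had 12.7 and 14.7 CPM. In EV+ libraries 1, 2 and 3 the levels were 11.99, 9.14 and 6.11 CPM. Every GN library was thus below both control libraries, and every EV+ library below both GN libraries. The EV- libraries had 5.20, 4.89 and 6.54 CPM, with 96 to 168 reads each. They lay below all GN and control libraries, but EV- library 3 was above EV+ library 3, so the EV+ and EV- levels overlapped. The group levels were 21.1 ± 5.80 CPM in control (SD, n = 2), 13.7 ± 1.35 in GN (n = 2), 9.08 ± 2.94 in EV+ (n = 3) and 5.54 ± 0.874 in EV- (n = 3).

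**Figure D1:**
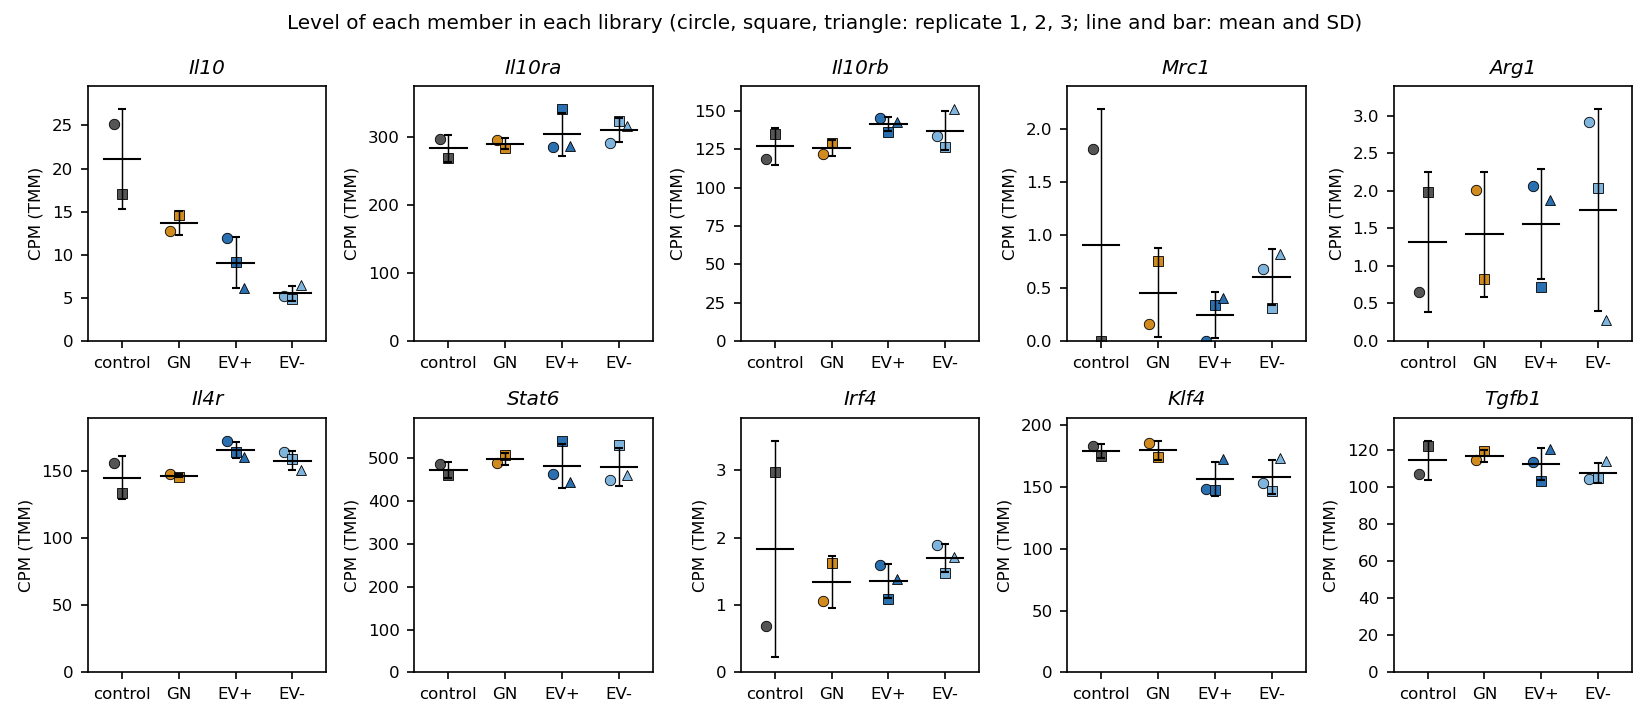
Level of each of the 10 genes in CPM (y axis, from 0) in each library of the 4 groups (x axis), with the group mean and SD as a line and bar. Il10 falls from 25.2 and 17.0 CPM in control to between 4.89 and 6.54 CPM in EV-, while Mrc1, Arg1 and Irf4 stay under 5 CPM and the other genes stay over 100 CPM.

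Over the 4 groups together Il10 differed with an adjusted p of 0.00583 (limma F test), where 2.57% of all genes were called. None of the other 9 members passed this test, the smallest adjusted p among them being 0.486. Nephritis alone (GN against control) gave a log2 difference of -0.57 for Il10 (SE 0.27; 95% confidence interval -1.14 to 0.01), a GN mean at 64.9% of the control mean in CPM. With an adjusted p of 0.487 (limma) it was not called. In that comparison 0 of 10 members were called, against 1.75% of all genes, and 0 members had an unadjusted p under 0.05.

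Against GN, Il10 in EV- cells differed by -1.17 (SE 0.24; 95% interval -1.69 to -0.65; adjusted p = 0.0810, limma), with the EV- mean at 40.5% of the GN mean. All 3 EV- libraries were below both GN libraries. It was the 1 member called in that comparison, in which 0.378% of all genes were called. The call was lost with the replicate number as a block (-1.11, adjusted p = 0.116) and without GN library 1 (adjusted p = 0.453), GN library 2 (0.543), EV- library 1 (0.181) or EV- library 2 (0.239). The size of the difference stayed between -1.27 and -1.08 in these fits.

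EV+ cells, the macrophages with dye, had an Il10 difference of -0.58 from GN (SE 0.24; 95% interval -1.11 to -0.06). The unadjusted p was 0.0309 and the adjusted p 0.673 (limma), so the difference was not called. No member was called in this comparison, against 0.122% of all genes, and at an unadjusted p under 0.05 there were 2 members, Il10 and Klf4. The edgeR quasi-likelihood test and DESeq2 on recovered reads called none either.

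Between the cells of treated rats with and without dye (EV+ against EV-), Il10 was 0.59 higher in EV+ (SE 0.22; 95% interval 0.12 to 1.06; adjusted p = 0.994, limma). An exact two-sided permutation test of the 6 libraries gave p = 0.2, where the smallest p that 3 against 3 allows is 0.1. That test took the libraries as unpaired, so neither value holds if same-numbered libraries are pairs. With the replicate number as a block the difference was 0.59 (adjusted p = 0.895, limma). EV+ was higher in 2 of 3 same-numbered pairs. No member was called, against 0.0222% of all genes, and only Il10 had an unadjusted p under 0.05. The edgeR quasi-likelihood test and DESeq2 called no member here or in GN against control. For all 10 members the EV+ and EV- levels overlapped, where 8.91% of all genes showed no overlap. Leaving out EV+ library 3 raised the difference to 0.82, and leaving out EV+ library 1 brought it to 0.38. By quantitative PCR the paper reports higher IL-10 expression in macrophages with dye than in those without. The Il10 difference in the libraries had the same direction but was not called. 

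Against control, Il10 differed by -1.15 in EV+ cells (SE 0.24; adjusted p = 0.0232, limma) and by -1.74 in EV- cells (SE 0.24; adjusted p = 0.00148). EV+ stood at 43.1% and EV- at 26.3% of the control mean in CPM. In each of these comparisons 1 of 10 members was called, against 3.63% and 2.84% of all genes. The EV- call held in all 19 alternative fits. The EV+ call was lost when only the groups compared were fitted (adjusted p = 0.114) and without control library 1, the library with the highest Il10, where the difference was -0.88 (adjusted p = 0.230). Without that library the GN difference from control was -0.30, and without control library 2 it was -0.84. These comparisons share the 2 control libraries.

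**Figure D2:**
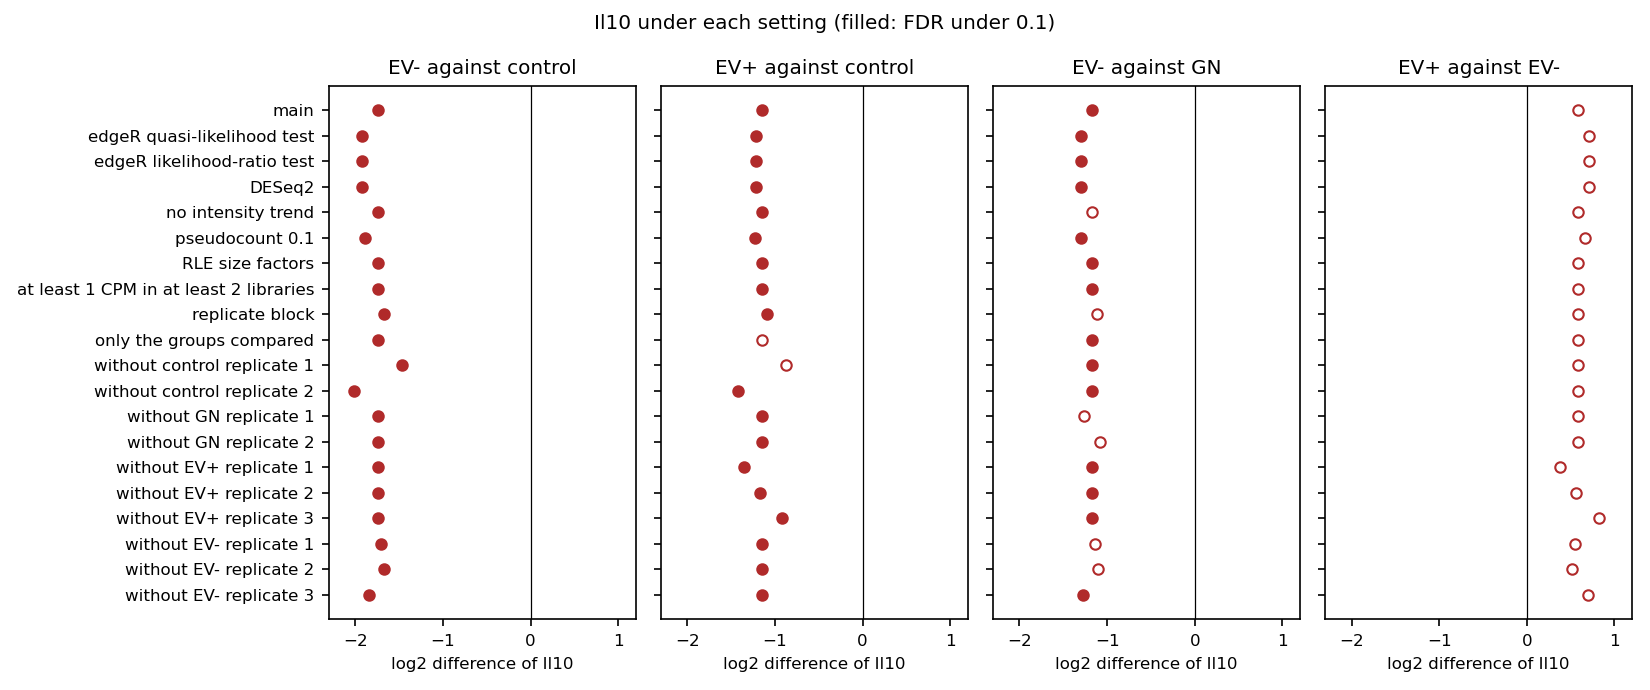
Difference of Il10 in log2 units (x axis; log2(CPM + 1) in the limma fits) under each way of fitting the data (y axis), in 4 comparisons, with filled points at an FDR under 0.1. All points for EV- against control are filled, several for EV- against GN are open, and all for EV+ against EV- are open, while none changes side of 0.

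Other values also differed among the libraries. The summed level of 10 heat shock genes was 2323 to 2331 CPM in control, 1741 to 2087 in GN, 1501 to 1891 in EV+ and 1530 to 2343 in EV-. The median difference of these genes from control was -0.40 in GN, -0.67 in EV+ and -0.51 in EV-. In each of these comparisons 7 of 10 were lower. Hspa1a, Dnajb1 and Hsp90aa1 were called as lower in EV+ against control (3 of 10, against 3.63% of all genes, limma). EV- library 1 had an Hspa1a level of 525 CPM, and the other EV- libraries had 112 and 115 CPM. The summed level of 12 NK and T cell markers (of 15 listed) was 278 to 283 CPM in control, 357 to 364 in GN, 340 to 422 in EV+ and 416 to 962 in EV- (library 1 highest), and Cd8a made up most of this sum in control (199 and 201 CPM). Cytotoxic genes of the list were higher in EV- than elsewhere: Prf1, which encodes perforin, ran from 24.5 to 335 CPM in EV- and was at most 18.4 CPM in EV+, and Nkg7 from 5.68 to 75.2 CPM in EV- and from 1.81 to 5.08 CPM in EV+. Prf1 was called in EV- against control (2.65, adjusted p = 0.0980, limma). The T cell marker Cd3e had 0 CPM in control and GN, 0 to 0.0421 CPM in EV+ and 0.306 to 2.09 CPM in EV-. The 11 macrophage markers summed to 28353 to 29046 CPM in control and to 33269 to 34087 in GN, 32195 to 34637 in EV+ and 31938 to 33784 in EV-. The part of these values in the Il10 result, and in the differences from control given further on, was not tested.

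Both chains of the interleukin-10 receptor stayed level. Il10ra, the ligand-binding chain, was at 298 and 270 CPM in the control libraries and at 297 and 285 CPM in the GN libraries. The EV+ libraries had 286, 342 and 287 CPM and the EV- libraries 292, 324 and 317 CPM, so all groups overlapped. Il10rb, the chain shared with receptors of related cytokines, ran from 118 to 135 CPM in control, 122 to 129 in GN, 136 to 145 in EV+ and 127 to 151 in EV-. All EV+ libraries were above both GN libraries for Il10rb, with a difference of 0.17 (95% interval -0.03 to 0.37; adjusted p = 0.792, limma).

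Il4r, which encodes the interleukin-4 receptor alpha chain, stood at 156 and 134 CPM in the control libraries, with 148 and 146 CPM in the GN libraries. EV+ libraries had 173, 164 and 161 CPM, above all control and GN libraries, and EV- libraries had 164, 159 and 150 CPM. The EV+ difference from control was 0.19 (SE 0.08; 95% interval 0.01 to 0.37), with an unadjusted p of 0.0388 and an adjusted p of 0.303 (limma). Stat6, the transcription factor activated by this receptor, ran from 443 to 541 CPM over all 10 libraries, and the 2 highest values, 541 and 531 CPM, were in EV+ library 2 and EV- library 2. Its differences lay between -0.06 and 0.07, all with intervals that included 0.

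Klf4 differed little and did not pass the test. The control libraries had 183 and 175 CPM, the GN libraries 185 and 174 CPM. In EV+ libraries it had 149, 148 and 173 CPM, and in EV- libraries 154, 147 and 174 CPM. Every EV+ and EV- library was therefore below both GN and both control libraries, although library 3 of each, at 173 and 174 CPM, was close to the lowest GN value of 174 CPM. The EV+ difference from GN was -0.20 (SE 0.09; 95% interval -0.40 to -0.00; unadjusted p = 0.0489, adjusted p = 0.695, limma). With the replicate block it was called in EV+ against control alone (-0.27, adjusted p = 0.0969), which made 2 members called in that comparison. The block called 379 of all 9003 genes there, against 327 without it.

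Tgfb1 levels were 107 and 122 CPM in the control libraries, 114 and 119 in GN, 113, 104 and 121 in EV+ and 104, 105 and 114 in EV-. The EV- libraries were below both GN libraries, with a difference of -0.12 (95% interval -0.32 to 0.08; adjusted p = 0.837, limma). The other groups overlapped. Between EV+ and EV- the difference was 0.06 (95% interval -0.12 to 0.24) and was not called. The paper reports no significant change of TGF-beta by quantitative PCR between macrophages with and without dye.

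For these 6 members, which exceeded 100 CPM in every library, the highest library was 1.18 to 1.29 times the lowest. Their 36 differences lay between -0.20 and 0.19, and the intervals within -0.40 and 0.37. Non-overlapping groups were common in this small design. In GN against control 2 of 10 members did not overlap (Il10 and Stat6), against 43.9% of all genes. In EV+ against GN it was 4 of 10 (Il10, Il10rb, Il4r and Klf4), against 23.0% of all genes, and in EV- against GN 4 of 10 (Il10, Il4r, Klf4 and Tgfb1), against 25.4%.

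**Figure D3:**
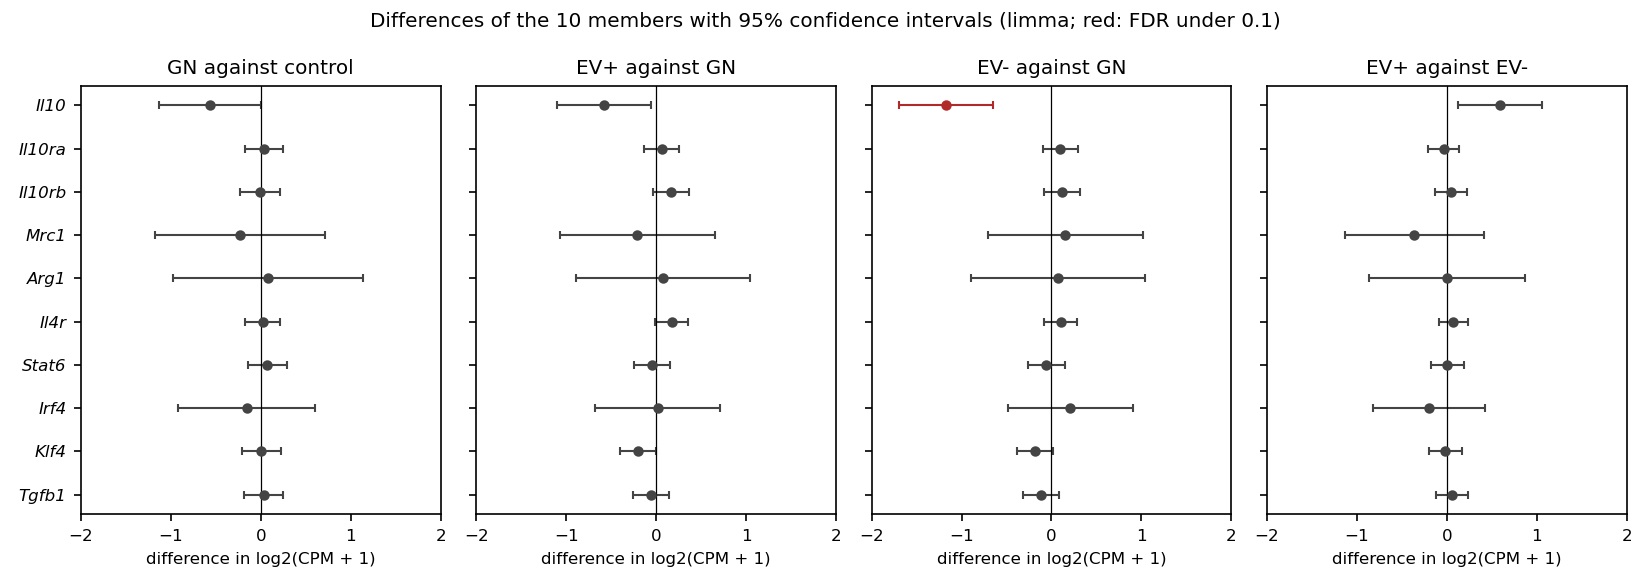
Difference in log2(CPM + 1) of each member (x axis) with its 95% confidence interval from limma, in 4 comparisons, with calls at an FDR under 0.1 in red. Il10 in EV- against GN (-1.17) is the single red point, the well expressed members sit near 0 with narrow intervals, and Mrc1, Arg1 and Irf4 have wide intervals.

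Mrc1, Arg1 and Irf4 were under 5 CPM in every library, and their levels varied within groups. Mrc1 had 47 reads (1.81 CPM) in control library 1 and 0 reads in control library 2. It had 0.158 and 0.753 CPM in GN, 0, 0.337 and 0.401 CPM in EV+ and 0.680, 0.306 and 0.817 CPM in EV-. A count of 0 allows a level of up to 3 reads, which was 0.113 to 0.153 CPM over the libraries. Mrc1 was under that floor in 2 libraries, and its groups overlapped.

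Arg1 ran from 7 reads (0.272 CPM, EV- library 3) to 60 reads (2.92 CPM, EV- library 1), so that 1 group held both its extremes. Its other levels were 0.655 and 1.98 CPM in control, 2.01 and 0.829 CPM in GN, 2.07, 0.716 and 1.87 CPM in EV+ and 2.04 CPM in EV- library 2. Irf4 had 0.693 and 2.97 CPM in control, its lowest and highest values. It ran from 1.06 to 1.62 CPM in GN, from 1.09 to 1.60 CPM in EV+ and from 1.48 to 1.90 CPM in EV-. The 18 tests of these 3 genes gave no adjusted p below 0.665 (limma), with interval ends as far out as -1.31 and 1.14.

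Levels of activation markers were also examined in these cells. No classical (M1) population was sequenced, so these levels cannot check the M2 label. The paper assigned the label by flow cytometry. It reports more IL-10 and less IL-6 and CCR2 expression in sorted M2 than in sorted M1 cells. Of 30 listed alternative markers 15 were in the table. Of those, 10 were under 5 CPM in every library, among them Mrc1, Arg1 and Cd163, a scavenger receptor (0 to 1.81 CPM). Only Chi3l1, Tgm2 and Cd36 were over 10 CPM in every library. Of 25 listed classical markers 20 were in the table and 11 exceeded 10 CPM in every library, including Il1b, which encodes interleukin-1 beta (2368 to 5157 CPM), and Nos2, the inducible nitric oxide synthase (20.1 to 123 CPM). In the libraries labelled M2 macrophages, Mrc1, Cd163 and Arg1 were thus low. Mrc1 reached the floor of 3 reads in 8 of 10 libraries, Cd163 in 7 and Arg1 in all 10. The 11 macrophage markers, with their sum given above, include Cd163. The other macrophage markers were at 95.5 CPM (the lowest Cd14 value) or more in every library.

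**Figure D4:**
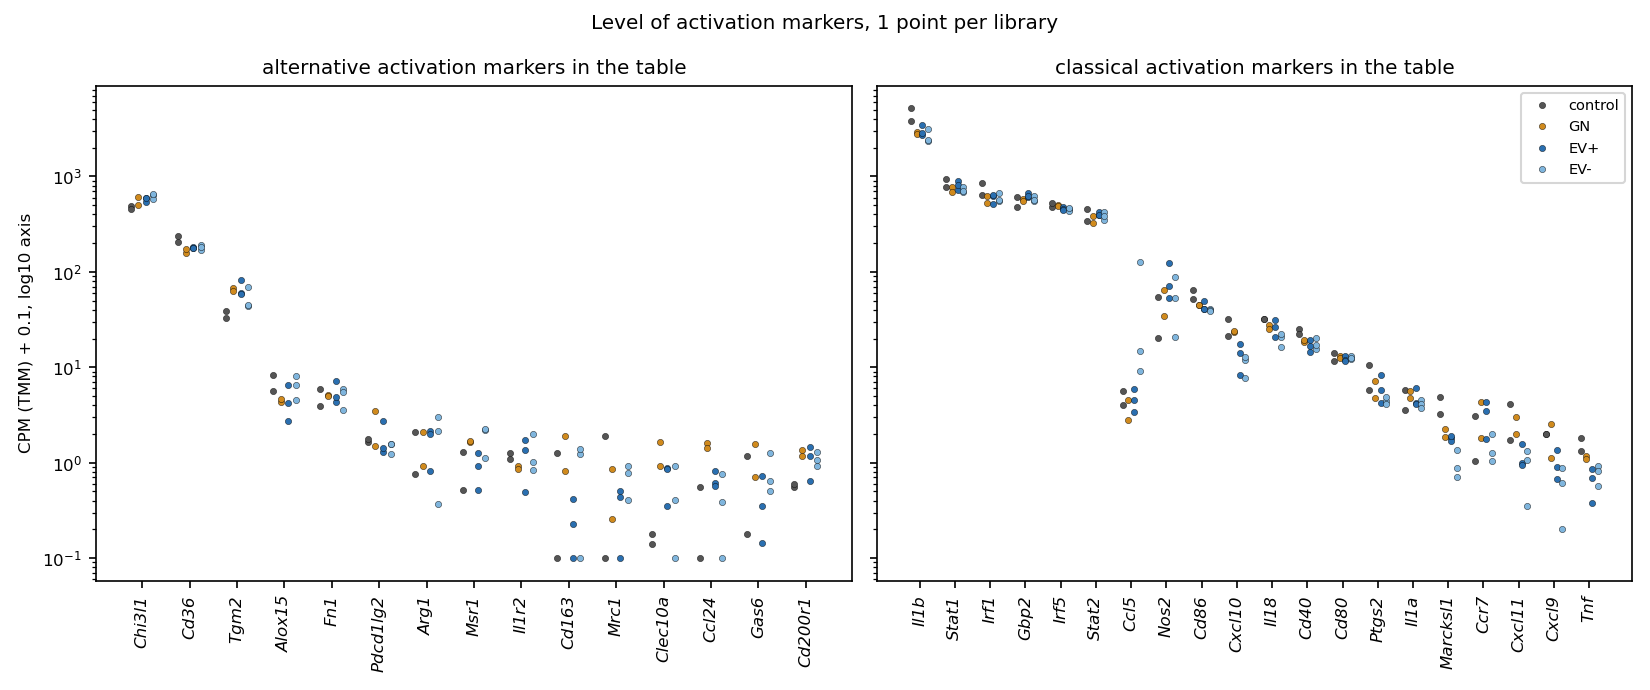
Level of each activation marker present in the table (CPM + 0.1 on a log10 axis, y; genes on x, ordered by their highest value), with 1 point per library coloured by group. Among the alternative markers only Chi3l1, Tgm2 and Cd36 stand above 10 CPM in every library, whereas 11 classical markers do.

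Of the further genes of the axis, 80 others on the pathway and activation lists were in the table. In GN against control 6 were called, in EV+ against control 7 and in EV- against control 9 (limma). Of all 9003 genes 158, 327 and 256 were called there (1.75%, 3.63% and 2.84%). The replicate block gave 7, 11 and 14, where it called 205, 379 and 290 of all genes. DESeq2 gave 9, 17 and 16, where it called 294, 540 and 474 of all genes. Both thus called more genes of any kind than limma without the block. None was called by limma without the block in EV+ against GN, EV- against GN or EV+ against EV-, where 7, 12 and 9 had an unadjusted p under 0.05. The edgeR quasi-likelihood test called none in these comparisons either, and DESeq2 called 1 (Bcl3), 4 (Bcl3, Ccl5, Cxcl10 and Eng) and 1 (Ccl5). Of all genes DESeq2 called 41, 113 and 34 there. With the replicate block Cxcl10 was called in EV- against GN (-1.26, adjusted p = 0.0707), where the block called 53 of all genes.

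The list of interleukin-10 signalling and Il10 control held 20 genes, all in the table. Its median difference was -0.00 in GN against control, 0.08 in EV+ against control and 0.02 in EV- against control, beside medians over all genes of -0.00, -0.00 and 0.01. Cebpd, a transcription factor that responds to interleukin-10, had 174 and 177 CPM in control, 145 and 138 in GN, 138, 135 and 133 in EV+ and 157, 146 and 149 in EV-. Control libraries were the highest. It fell in EV+ against control (-0.38, SE 0.07, adjusted p = 0.0154, limma), a call lost without control library 2 (adjusted p = 0.152). DESeq2 also called Cebpd as lower in GN (-0.32, adjusted p = 0.0103) and EV- (-0.22, adjusted p = 0.0744) against control. The signalling genes Jak1, Tyk2, Stat3 and Socs3 were called in no comparison in this fit, and Jak1 was called as higher in EV+ against control with the replicate block (0.32, adjusted p = 0.0454) and with DESeq2 (0.26, adjusted p = 0.0773). The block also called Cebpb as lower in EV+ (-0.46, adjusted p = 0.0134) and EV- (-0.41, adjusted p = 0.0325) and Hmox1 as lower in EV+ (-0.51, adjusted p = 0.0468) and EV- (-0.45, adjusted p = 0.0965) against control. DESeq2 called Cebpb as lower in EV+ (adjusted p = 0.0264) and EV- (adjusted p = 0.0963) against control. In EV+ against control it also called Hmox1 as lower (adjusted p = 0.0565) and Il1rn as higher (0.24, adjusted p = 0.0715).

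Pparg, a lipid-sensing nuclear receptor induced by interleukin-4, was the 1 gene of the Il4r and Stat6 list (19 of 20 genes in the table) called in the limma fit of 4 groups. It fell against control by 0.60 in GN (SE 0.09, adjusted p = 0.00454, limma), by 0.76 in EV+ (SE 0.08, adjusted p = 1.04e-04) and by 0.63 in EV- (SE 0.08, adjusted p = 5.55e-04). The Pparg levels were 210 and 220 CPM in control, 145 and 138 in GN, 120, 130 and 130 in EV+ and 134, 147 and 134 in EV-. Control libraries lay above all others. All 3 calls held in all 19 alternative fits. Other genes of the list were called in other fits. Il2rg, the common gamma chain of cytokine receptors, was called as higher in GN against control with the replicate block (0.35, adjusted p = 0.0782). In EV+ against control the block called Jak1 as higher and Klf4 as lower, with the values given above. DESeq2 also called Il2rg in GN, EV+ and EV-, and Irs2, an adaptor of the interleukin-4 receptor, in EV+ and EV- (-0.51 in each). The list's medians were 0.01, 0.02 and 0.05 in these comparisons.

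**Figure D5:**
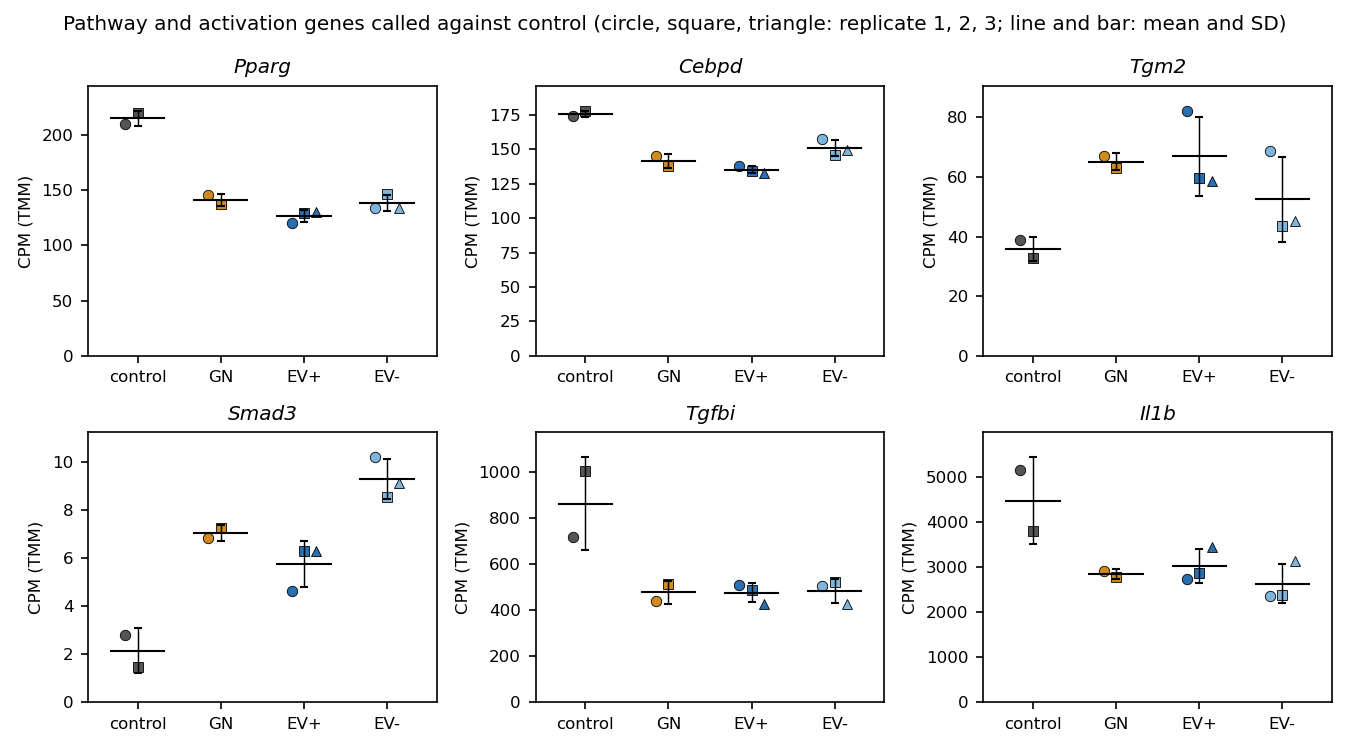
Level in CPM (y axis, from 0) of 6 pathway and activation genes called against control in at least 1 comparison, in each library of the 4 groups (x axis), with the group mean and SD. Pparg lies at 210 and 220 CPM in control and at 120 to 147 CPM elsewhere, Cebpd, Tgfbi and Il1b are likewise higher in control, and Smad3 and Tgm2 are lower in control.

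Among alternative markers, Tgm2, which encodes transglutaminase 2, rose in GN (0.85, SE 0.20, adjusted p = 0.0731, limma) and EV+ (0.87, SE 0.18, adjusted p = 0.0232) against control. Its levels were 38.7 and 32.9 CPM in control, 67.1 and 63.0 in GN and 82.3, 59.8 and 58.7 in EV+. In EV- (68.8, 43.4 and 45.3 CPM) Tgm2 was not called without the replicate block (adjusted p = 0.229, limma) and was called with it (0.60, adjusted p = 0.0333). Without control library 2 both Tgm2 calls were lost, and the GN call also without control library 1 or either GN library (adjusted p up to 0.249 in EV+ and 0.351 in GN). Chi3l1, a chitinase-like lectin, rose in EV- against control (0.41, SE 0.09, adjusted p = 0.0329), and the scavenger receptor gene Cd36 fell in GN (-0.40, SE 0.10, adjusted p = 0.0743). The Chi3l1 call was lost without either control library or EV- library 1 or 3, and the Cd36 call without control library 2, either GN library, EV+ library 3 or EV- library 3 (adjusted p up to 0.275 and 0.451). With no intensity trend the Tgm2 calls in GN and EV+ and the Chi3l1 and Cd36 calls were lost as well. The Cd36 call was also lost when only the groups compared were fitted. Against control DESeq2 also called Cd36 as lower in EV+ (-0.30, adjusted p = 0.0449) and EV- (-0.28, adjusted p = 0.0719). It called Chi3l1 as higher in EV+ (0.29, adjusted p = 0.0577) and Clec10a, under 5 CPM in every library, as higher in GN (adjusted p = 0.0981). The highest adjusted p values given for lost calls are over all alternative fits. The 15 alternative markers in the table had medians of 0.32 (GN), 0.03 (EV+) and 0.16 (EV-) against control.

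The classical markers called against control in the limma fit of 4 groups were all lower than in control. With the replicate block 2 were called as higher. Ccl5, a chemokine, was called in EV- against control with this block (2.63, adjusted p = 0.0842) and also with DESeq2 (adjusted p = 0.0343) and the edgeR quasi-likelihood test (adjusted p = 0.0999), with levels of 3.89 and 5.53 CPM in control and 126, 14.8 and 9.07 in EV-. Its EV+ levels were 5.78, 3.33 and 4.46 CPM. In EV- libraries 1, 2 and 3 the cytotoxic genes Prf1 (335, 51.4 and 24.5 CPM) and Nkg7 (75.2, 10.1 and 5.68 CPM) had the same order as Ccl5. Which cells the Ccl5 reads came from was not tested. Nos2 was called in EV+ against control with the block (1.18, adjusted p = 0.00954), with 54.4 and 20.1 CPM in control and 123, 53.4 and 71.2 in EV+, which overlapped. Il1b fell in GN (-0.64, SE 0.15, adjusted p = 0.0772, limma), EV+ (-0.56, SE 0.14, adjusted p = 0.0624) and EV- (-0.76, SE 0.14, adjusted p = 0.0141), with 15, 12 and 17 of 19 alternative fits keeping the calls. The Il1b calls were all lost without control library 1 (adjusted p up to 0.518, 0.384 and 0.187 over the fits), the GN and EV+ calls also without either GN library, and the EV+ call without EV+ library 1 or 2. Cxcl10, an interferon-induced chemokine, fell in EV+ (-0.99, SE 0.27) and EV- (-1.23, SE 0.27) against control, with levels of 32.1 and 21.0 CPM in control, 23.3 and 23.7 in GN, 8.24, 14.0 and 17.2 in EV+ and 11.9, 7.65 and 12.7 in EV-. The Cxcl10 calls were lost without control library 1, and the EV+ call also without control library 2, either GN library, EV+ library 1 or 2 or EV- library 1 (adjusted p up to 0.391). Cd86, which encodes a co-stimulatory ligand, Il18 and Marcksl1 fell in EV- against control (-0.53, -0.67 and -1.39), and none of them was called in EV+ against EV-. The Cd86 call was lost without control library 2 or EV- library 3, the Marcksl1 call without control library 1, and the Il18 call without any of the control or GN libraries or EV- library 1 or 2 (adjusted p up to 0.416, 0.171 and 0.345). With no intensity trend the Il1b, Cxcl10, Cd86 and Il18 calls were lost as well. The EV+ calls of Il1b and Cxcl10 were also lost when only the groups compared were fitted. Cxcl11 was called as lower in EV- against control with the replicate block (-1.14, adjusted p = 0.0775). In EV+ against control DESeq2 called Cd86 (-0.43, adjusted p = 0.0422) and Cd40 (-0.51, adjusted p = 0.0873) as lower. Limma gave adjusted p = 0.109 for Cd86 there and 0.147 for Cd40. The 20 classical markers in the table had medians of -0.20, -0.30 and -0.36 in GN, EV+ and EV- against control.

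In the TGF-beta list (17 of 28 genes in the table), the signal transducer Smad3 rose against control in GN (1.39, SE 0.24, adjusted p = 0.0126, limma), EV+ (1.12, SE 0.22, adjusted p = 0.0148) and EV- (1.74, SE 0.22, adjusted p = 5.55e-04). Smad3 was at 2.81 and 1.48 CPM in control, 6.82 and 7.27 in GN, 4.65, 6.31 and 6.29 in EV+ and 10.2, 8.56 and 9.14 in EV-. Tgfbi, a matrix protein gene induced by TGF-beta, fell in GN (-0.84, SE 0.14, adjusted p = 0.0119), EV+ (-0.84, SE 0.13, adjusted p = 0.00281) and EV- (-0.82, SE 0.13, adjusted p = 0.00516). Its levels were 718 and 1004 CPM in control and 426 to 522 CPM in the other libraries. The Smad3 call in EV- and the Tgfbi calls in EV+ and EV- held in all 19 alternative fits. Without control library 2 the Smad3 calls in GN and EV+ and the Tgfbi call in GN were lost, as were the GN calls of both without GN library 1 and that of Smad3 without GN library 2 (adjusted p up to 0.134 for Smad3 in GN, 0.225 in EV+ and 0.165 for Tgfbi in GN). The Tgfbi call in GN was lost with no intensity trend as well. Tgfb1 itself was not called in any comparison.

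By likeness of pattern over the 10 libraries (Pearson r of log2(CPM + 1), genes with a mean of at least 5 CPM), the genes closest to Il10 were Qk (r = 0.914), Riok3 (r = 0.914) and Cd83 (r = 0.910). Cd83, a surface marker of activated antigen-presenting cells, had means of 137 CPM in control, 114 in GN, 75.7 in EV+ and 50.8 in EV-. Closest to Klf4 were Tmem42 (r = 0.920), Selo (r = 0.904) and Chic2 (r = 0.898), and closest to Tgfb1 were Lamtor4 (r = 0.924), Dap (r = 0.917) and C1galt1c1 (r = 0.908). The nearest genes to Mrc1 (Pnn, r = 0.914), Arg1 (Zfp157, r = 0.931) and Irf4 (Mpnd, r = 0.929) belong to members with few reads. These are the highest of 7177 or 7178 values for each member, over libraries that share 4 groups.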

How the data were processed

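RNA of sorted splenic macrophages was amplified with SMART-Seq v4, made into Nextera XT libraries and sequenced paired-end. The authors aligned reads with STAR to the rat build rn6, counted RefSeq genes with HTSeq (intersection-strict), removed genes with a maximum CPM under 1 across libraries and applied edgeR's TMM. The deposited signal values are TMM-normalized CPM of 10 libraries and 9003 genes, of which 18 symbols had been turned into dates. Per the file headers each column is 1 library. Whole reads were recovered from the steps of the deposited values (all values whole within 0.05 reads), giving 19270515 to 26617093 reads per library in the table. A floor of 3 reads was used. This floor covers counting error only, since reads without molecular identifiers are not independent molecules. The confidence intervals given are those of the limma fits and rest on the spread between libraries.

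limma 3.58.1 (R 4.3.3, intensity trend) was fitted to log2(CPM + 1) in 1 model of 4 groups, with Benjamini-Hochberg adjustment over all genes and an FDR under 0.1. Single values of EV+ against EV- were compared by an exact two-sided permutation test that took the libraries as unpaired. Alternatives were edgeR 4.0.16 and DESeq2 1.42.0 on recovered reads, no trend, a pseudocount of 0.1, RLE factors, at least 1 CPM in at least 2 libraries (8713 genes), a replicate block, only the groups compared, an FDR of 0.05 and leaving out each library. Scripts were tested on simulated data. Residuals of same-numbered EV+ and EV- libraries correlated (0.203, 0.295 and 0.122), and this pairing is read from these data. Control and GN gave 0.088 for same-numbered libraries and -0.088 for differently numbered ones. With 2 libraries per group these values mirror each other by construction and cannot show a pairing. The replicate block used the number across all 4 groups, though the labels do not say what it stands for. Replicates are biological per the study's methods, and counts of replicate libraries differed by more than sampling noise (chi-square per degree of freedom 13.4 to 45.4).

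The genes and lists were chosen with earlier results of these data known. Named were the members, list genes called (at most 5 per list and direction) and the 3 genes nearest to 6 members. 1 gene of the lists is not reported here and was left out of their counts. No gene sequence is printed.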

Additional observations from a re-analysis of the deposited data

How the results depend on the processing

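Groups of 2 and 3 libraries limit these results, and Mrc1, Arg1 and Irf4 rest on few reads. Over 19 alternative fits Il10 never changed sign. Its 114 alternative values kept their side of the threshold in 106 cases and lost the call in 8. In EV- against GN the number of members called was 0, in place of 1, with no intensity trend (-1.17, adjusted p = 0.263), with the replicate block (-1.11, adjusted p = 0.116) and at an FDR of 0.05, and leaving out libraries gave 0 to 1 members and Il10 differences of -1.28 to -1.08. In EV+ against control it was 2 with the replicate block (Il10 and Klf4) and 0 when only the groups compared were fitted (-1.15, adjusted p = 0.114), and leaving out libraries gave 0 to 1 members and Il10 differences of -1.42 to -0.88. The replicate block changed no other call of a member. Counts over all genes depended on the test: EV+ against EV- gave 2 in the limma fit, 0 without the trend, 34 with DESeq2, 57 with the edgeR likelihood-ratio test and 5 with the block, and EV+ against GN gave 11, 0, 41, 43 and 30. EV- against GN gave 34, 6, 113, 126 and 53. The cause of these shifts was not tested.

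The other 9 members had 1020 alternative values, of which 62 changed sign, none of them called in either fit, and 1 became called (Klf4, above). With a pseudocount of 0.1 the sign changed for Mrc1 in GN against control (0.10) and EV- against control (0.60) and for Arg1 in EV- against GN (-0.0644) and EV+ against EV- (0.18). For Irf4 in EV- against control it changed on recovered reads (-0.11 in both edgeR tests and in DESeq2). The remaining sign changes came from leaving out 1 library, where the differences had these ranges. Il10ra ran from -0.0353 to 0.11 in GN against control, -0.0209 to 0.11 in EV+ against GN and -0.12 to 0.0104 in EV+ against EV-. Il10rb ran from -0.10 to 0.0847 in GN against control and -0.00475 to 0.12 in EV+ against EV-. Il4r ran from -0.0914 to 0.13 in GN against control. Stat6 ran from -0.13 to 0.00965 in EV+ against GN, -0.0774 to 0.0821 in EV+ against EV-, -0.0603 to 0.0828 in EV+ against control and -0.0577 to 0.0638 in EV- against control. Klf4 ran from -0.0372 to 0.0503 in GN against control and -0.0883 to 0.0533 in EV+ against EV-. Tgfb1 ran from -0.0615 to 0.13 in GN against control, -0.11 to 0.00218 in EV+ against GN, -0.12 to 0.0706 in EV+ against control and -0.18 to 0.00944 in EV- against control. Mrc1 ran from -0.98 to 0.51 in GN against control, -0.51 to 0.0906 in EV+ against GN, -0.14 to 0.45 in EV- against GN, -1.19 to 0.30 in EV+ against control and -0.83 to 0.67 in EV- against control. Arg1 ran from -0.34 to 0.50 in GN against control, -0.28 to 0.44 in EV+ against GN, -0.28 to 0.56 in EV- against GN, -0.48 to 0.33 in EV+ against EV-, -0.27 to 0.58 in EV+ against control and -0.27 to 0.64 in EV- against control. Irf4 ran from -0.77 to 0.46 in GN against control, -0.16 to 0.19 in EV+ against GN, -0.76 to 0.47 in EV+ against control and -0.56 to 0.67 in EV- against control.

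Of 22 calls of other pathway and activation genes against control, 6 held in every alternative fit and 16 were lost in at least 1. Those 6 were Pparg in GN, EV+ and EV-, Smad3 in EV-, and Tgfbi in EV+ and EV-. Calls against control were also gained: 10 with the replicate block, 20 with DESeq2 and 1 with the edgeR quasi-likelihood test, none of which lost any of the 22. The block and DESeq2 also called more of all genes in each comparison with control, as given above.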
